A study of Homo sapiens with 6 samples.

Results

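The 35 genes described here encode RNA-binding proteins that carry, store, silence or degrade mRNA in the cytoplasm, with the hnRNPs that coat transcripts in the nucleus. They were taken by name as rows of a deposited count table of 60671 Ensembl gene IDs, and each of the 35 symbols matched 1 ID. They were picked by name and role, with earlier results of these data known. The measurement concerns the RNAs that encode these proteins, not the proteins. It gives how much of each transcript was recovered with an antibody to the myc tag, background included.

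RNA was precipitated with an antibody to the myc tag from transfected HEK cells, an established human line of embryonic kidney origin. SYNJ2BP, an adaptor of the outer mitochondrial membrane that anchors SYNJ2, is the protein named in the labels. A wild-type control (WT.Control, treatment given as untreated) and a SYNJ2BP AAA mutant (AAA.mito) had 3 libraries each. The sources used here do not give what the control cells expressed, which residues were replaced or what the term mito stands for, and differences other than the mutation cannot be told apart from it. Ribosomal RNA was removed after the precipitation. Input RNA was not analysed here, and lower recovery, less transcript per cell and fewer cells cannot be told apart in these libraries. The comparison asked which RNAs came down to a different extent with the mutant.

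mRNAs that are moved before they are translated travel as granules whose proteins both package the transcript and keep ribosomes away. FMRP and its relatives repress translation on the way, Staufen and the IGF2BPs bind structured or zipcode elements, and Pumilio, ELAV and Quaking proteins read short motifs in the 3′ UTR. G3BP and CAPRIN1 nucleate stress granules, DDX6 belongs to processing bodies, and UPF1 is the helicase of nonsense-mediated decay. Many of these proteins bind their own mRNAs or those of their relatives. In neurons such granules can travel on organelles, and SYNJ2 carries an RNA recognition motif.

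Some of these transcripts hold the motifs that other genes of the group read. Each 3′ UTR was taken from the principal transcript of GENCODE release 29 and searched on the transcript strand for the Pumilio element TGTANATA, the Quaking core ACTAAC and the AU-rich nonamer TTATTTATT, which ELAVL1 and KHSRP are known to bind; no site overlapped one of another motif. The Pumilio element was present in 13 of 35 3′ UTRs, the Quaking core in 12 and the nonamer in 6. Over all 18917 genes with a 3′ UTR these counts were 4427, 2876 and 1420. The 3′ UTRs of the 35 were longer, with a median of 2153 bases against 871. Sites per kb were 0.242 against 0.235 for the Pumilio element, 0.177 against 0.126 for the Quaking core and 0.0652 against 0.0675 for the nonamer. Within the last 1000 bases of 3′ UTRs at least that long, the Pumilio element was found in 3 of 26 (11.5%) against 22.6% of 8754 genes, the Quaking core in 4 (15.4% against 12.1%) and the nonamer in 2 (7.69% against 5.41%). The Pumilio and AU-rich sites of FMR1, FXR1 and PUM2 are shown. The Fragile X family holds FXR2, the 1 transcript called lower when libraries were paired by replicate number. PUM2 mRNA carries its own protein's element. FMR1 also holds 1 Quaking core, not shown. Capitals mark the motif, with 10 bases on either side.
FMR1 Pumilio, chrX:147950467-147950474, plus strand: tttaaaatacTGTAGATAattaaccaag
FMR1 Pumilio, chrX:147950528-147950535, plus strand: caatattctcTGTACATAttagcgacaa
FMR1 AU-rich, chrX:147950381-147950389, plus strand: tgatttctagTTATTTATTctgggaatgt
FXR1 Pumilio, chr3:180977555-180977562, plus strand: ttaaactttaTGTATATAttttagccag
FXR1 Pumilio, chr3:180980445-180980452, plus strand: aactgtaaaaTGTACATAttaattttct
FXR1 AU-rich, chr3:180976901-180976909, plus strand: tttgtttggtTTATTTATTaaagtgtaca
PUM2 Pumilio, chr2:20251153-20251160, minus strand: tttatagagaTGTATATAgaattatagt
PUM2 Pumilio, chr2:20250893-20250900, minus strand: acagaaatatTGTATATActtacatatg
The 3′ UTR of FXR2 has 600 bases against 2281 in FMR1 and 6461 in FXR1, and none of the 3 motifs was found in it. Coordinates are on GRCh38. The sites were not tested against recovery.

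Library quality differed by replicate number more than by group. Total counts ran from 3287218 to 73331652. Background was measured as counts per base over 381 olfactory receptor genes, a family taken as silent in these cells, and made up 37.9% and 55.5% of nuclear gene counts in replicates 1 of control and mutant, 84.4% and 81.8% in replicates 2, and 7.48% and 6.61% in replicates 3. Of 5 HEK markers, VIM stood at 3.54 to 253 times background over the libraries and NEFM at 5.67 to 91.1 times. The other HEK markers came near background in some libraries, with lowest values of 1.04 times for KRT8, 1.12 times for KRT18 and 0.905 times for LIN28B. The medians of 8 markers of blood, liver, neurons and fibroblasts lay between 1.18 and 1.55 times in every library, with COL1A1 highest at 1.88 to 17.3 times. In replicates 3 of control and mutant, neuronal SYN1 stood at 7.97 and 6.78 times and SNAP25 at 2.63 and 5.08 times. KRT8 had 8.26 and 6.09 times there. The markers of blood and liver, RBFOX3 and COL3A1 lay at 0.543 to 1.73 times in these 2 libraries.

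The 35 transcripts followed the same order. Relative to background their median count was 10.0, 2.00 and 81.6 for replicates 1, 2 and 3 of the control, and 6.09, 2.01 and 81.0 for those of the mutant. In replicate 2 of the control 17 of 35 lay under 2 times background, and so did 17 in replicate 2 of the mutant. In the replicate 3 libraries none did. Together the transcripts held 0.397%, 0.186% and 0.502% of all counts in the control and 0.263%, 0.159% and 0.505% in the mutant. Their share was thus lower in the mutant in pairs 1 and 2 and nearly equal in pair 3. Background was not removed from these shares, and it made up 37.9% of nuclear gene counts in control replicate 1 and 55.5% in mutant replicate 1. Here a pair is the control and mutant library of the same replicate number.

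**Figure D1:**
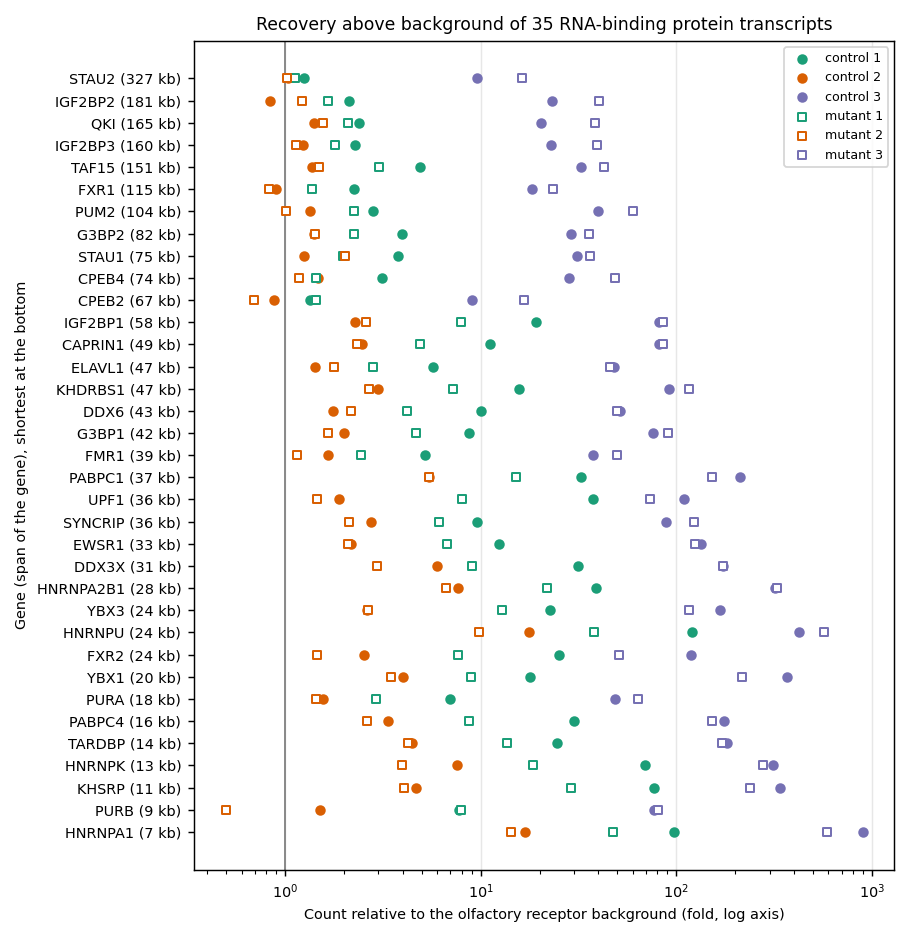
Count of each of the 35 transcripts relative to background (fold, log axis) in the 6 libraries, with genes ordered by the length of the gene; filled circles are control and open squares mutant libraries, and colour gives the replicate number. Replicate 3 libraries lie farthest to the right at 9.02 to 897 times, and replicate 2 libraries lie at 0.497 to 17.6 times.

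FXR2 was the 1 transcript of the 35 called lower in the mutant, and only when libraries were treated as pairs. With the pairs in the edgeR fit, 1 of 35 was called lower and none higher, against 1.4% of all 33375 tested genes called lower and 0.00599% called higher. Among 4379 tested genes more than 8 times above background on average, to which 21 of the 35 belong, 8.54% were called lower. The 1 call among these 21 is no more than that share. Without the pairs edgeR called 0 of 33375 genes (0% in each direction) and DESeq2 called 0; at an unadjusted p under 0.05 they had 25 and 343 genes, none of them among the 35. Pairing brought the biological coefficient of variation from 0.746 to 0.249. The median log2 fold change of the 35 was −0.32 without the pairs and −0.37 with them, beside −0.030 and −0.080 over all tested genes and −0.62 and −0.51 over those far above background.

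Direction was shared more often than the test passed. All 3 pairs were lower in the mutant for 14 of the 35 transcripts, against 18.2% of all tested genes. The 14 were all among the 21 transcripts far above background, and 39.7% of all genes far above background were lower in all 3 pairs. No transcript was higher in all 3 pairs, against 9.9% of tested genes and only 74 of the 4379 genes far above background. Normalised counts (CPM, scaled to library size with TMM factors) overlapped between the groups for each of the 35, and 0.998% of tested genes did not overlap. Median pair differences of the 35 were −0.83, −0.20 and −0.18 log2 units in pairs 1, 2 and 3. Those of genes far above background were −0.82, −0.00027 and −0.63, and those of all tested genes −0.094, −0.022 and −0.13.

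**Figure D2:**
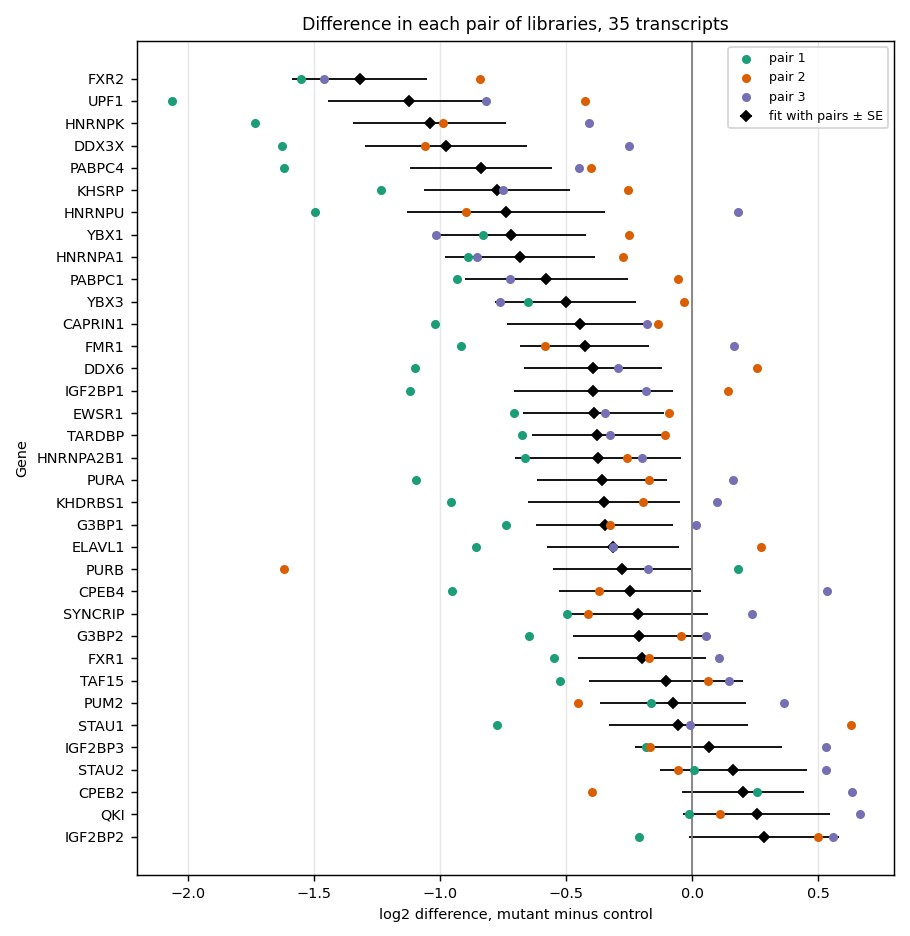
Log2 difference in normalised counts, mutant minus control, in each pair of libraries (coloured points) for the 35 transcripts, with the estimate of the edgeR fit with pairs and its standard error (black diamonds and lines, n = 3 pairs). FXR2 has the lowest estimate at −1.32, and 32 of 35 points of pair 1 lie left of 0 against 19 of pair 3.

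The Fragile X family repress translation and bind one another. FXR2 had 124, 19.1 and 157 CPM in control replicates 1, 2 and 3 and 42.3, 10.6 and 57.0 CPM in the mutant. Each mutant library was lower than its control partner, while the low replicate 2 of the control lay below mutant replicates 1 and 3. FXR2 fell by 1.32 ± 0.27 log2 units with the pairs (SE, n = 3 pairs; edgeR adjusted p = 0.00567), with pair differences of −1.55, −0.84 and −1.46. Without the pairs the value was −1.45 ± 0.91 (edgeR adjusted p = 1). Relative to background its counts were 25.2, 2.53 and 119 in control libraries. Mutant libraries had 7.68, 1.46 and 51.2 times background, and both pair 2 libraries lay near it.

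FXR2 (ENSG00000129245, chromosome 17, 7591230 to 7614871, minus strand) overlaps MPDU1 and SHBG on the opposite strand over at most 6.6% of its span. The call was lost when any pair was left out, at −1.25 without pair 1, −1.34 without pair 2 and −1.25 without pair 3 (edgeR adjusted p = 0.407, 0.235 and 0.338). It was also lost with scaling from genes far above background, where the value was −0.80 (edgeR adjusted p = 0.56), and with background subtracted, where it was −1.50 (edgeR adjusted p = 0.993).

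Neither FMR1, which encodes FMRP, nor FXR1 passed the test. FMR1 had 42.3, 20.8 and 81.8 CPM in the control and 22.3, 13.9 and 91.7 CPM in the mutant libraries. It was lower in pairs 1 and 2 and higher in pair 3, and the fit with pairs gave −0.43 ± 0.26 (adjusted p = 0.676). FXR1 had 53.6, 32.8 and 117 CPM against 36.7, 29.1 and 126 CPM and a value of −0.20 ± 0.26 (adjusted p = 0.951). In replicate 2 FXR1 lay below background, at 0.897 times in the control and 0.825 times in the mutant.

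Ratios between relatives within a library do not depend on scaling, but background was not subtracted from them. Expected background was taken in proportion to gene span, which is 23.6 kb for FXR2, 115 kb for FXR1 and 39.2 kb for FMR1. It made up 37.9% of nuclear gene counts in control replicate 1 and 55.5% in mutant replicate 1. The part of background in the ratios was not tested. FXR2 had 2.31, 0.583 and 1.34 times the count of FXR1 for control libraries and 1.15, 0.365 and 0.452 times for mutant ones, lower in 3 of 3 pairs. The ratio of FXR2 to FMR1 was 2.94, 0.919 and 1.92 against 1.89, 0.767 and 0.621, also lower in each pair. The mean log2 ratios differed by −1.08 and −0.84, and the groups overlapped. Neither difference passed the exact two-sided permutation test over libraries (p = 0.2 for each; adjusted p = 0.758 over 13 such ratios). With 3 libraries against 3 the smallest p this test can give is 0.1.

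**Figure D3:**
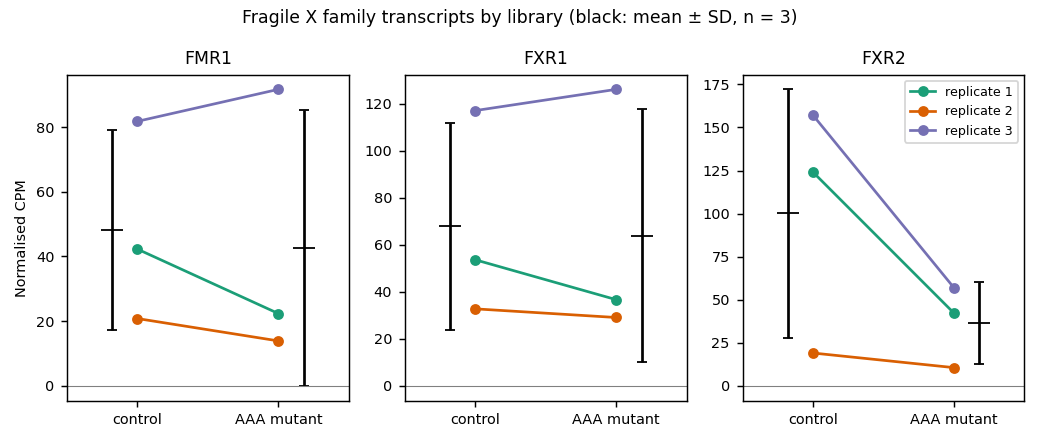
Normalised CPM of FMR1, FXR1 and FXR2 in control and AAA mutant libraries; lines join libraries of the same replicate number, and black bars give the mean ± SD (n = 3). All 3 lines slope down for FXR2, from 157 to 57.0 CPM in replicate 3, while those of replicate 3 slope up for FMR1 (81.8 to 91.7) and FXR1 (117 to 126).

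UPF1, the central helicase of nonsense-mediated decay, had the next smallest p. It gave 284, 21.7 and 220.3 CPM in the control and 67.8, 16.2 and 125 CPM in the mutant. Replicate 1 of the control was the highest library and replicate 2 was low in both groups. The fit with pairs gave −1.13 ± 0.32 (adjusted p = 0.0669), with pair differences of −2.07, −0.42 and −0.82, and the transcript did not pass. Of 16 other genes of decay and the exon junction complex, SMG5, an adaptor that binds phosphorylated UPF1, fell by 1.52 ± 0.38 (adjusted p = 0.0316) and the others did not pass. ETF1, the translation termination factor, followed with −1.03 ± 0.30 (adjusted p = 0.0761).

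The hnRNPs package nascent transcripts and many shuttle to the cytoplasm. HNRNPK, which binds C-rich stretches, had 180.1, 30.3 and 218 CPM in the control and 54.0, 15.2 and 164 CPM in the mutant and was lower in each pair. Its fit with pairs gave −1.04 ± 0.30 (adjusted p = 0.0755). HNRNPA1, a splicing repressor, had 141, 36.9 and 345 CPM against 75.8, 30.5 and 191 CPM and a value of −0.68 ± 0.30 (adjusted p = 0.375). Both were highest in control replicate 3.

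HNRNPA2B1, which binds the sorting element of myelin and dendritic mRNAs, ran with smaller differences of −0.66, −0.26 and −0.20 in the 3 pairs. The count of HNRNPA1 was 0.613, 0.532 and 0.681 times that of HNRNPA2B1 for control libraries and 0.523, 0.526 and 0.433 times for mutant ones, so the ratio was lower in every mutant library than in any control library. This was the smallest p the exact permutation test can give (p = 0.1; adjusted p = 0.758 over 13 ratios), and the difference in mean log2 ratio was −0.30. HNRNPU, a nuclear scaffold protein, was lower in pairs 1 and 2 and higher in pair 3 (−1.50, −0.90 and 0.18). Of 23 other hnRNP genes none was called; the smallest p belonged to HNRNPH2 (−0.86 ± 0.25, adjusted p = 0.0708) and HNRNPL (−0.99 ± 0.29, adjusted p = 0.0798). At an unadjusted p under 0.05 the fit with pairs had 11 of these 23 and 8 of the 35, against 3347 of 33375 tested genes and 1822 of the 4379 far above background.

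Several of these values are uncertain because of copies and neighbours. HNRNPA1 has 74 named copies in the table, whose counts summed to 13.3% of its own, and lies wholly within the longer gene AC078778.2 on the same strand. Named copies came to 10.6% of the count of HNRNPK and 2.15% of that of YBX1. TARDBP and CPEB2 are covered by another gene over 97.7% and 96.6% of their span, PABPC4 over 50.9% and HNRNPA2B1 over 49.4%.

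The poly(A)-binding and cold shock proteins coat translated and stored mRNA. PABPC1, which binds the poly(A) tail, had 249, 64.5 and 437 CPM in the control and 130.4, 61.9 and 265 CPM in the mutant. Pair 2 was nearly level and pairs 1 and 3 were lower, giving −0.58 ± 0.32 (adjusted p = 0.617). Its relative PABPC4 gave −0.84 ± 0.28 (adjusted p = 0.156).

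YBX1, a cold shock protein of stored messenger particles, had 73.9, 25.3 and 409.8 CPM against 41.5, 21.2 and 202 CPM, with control replicate 3 far above all others. Its value was −0.72 ± 0.30 (adjusted p = 0.323), and YBX3 gave −0.50 ± 0.28 (adjusted p = 0.61). For these 4 transcripts each of the 3 pairs had the lower value in the mutant, and none passed.

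Granule scaffolds and helicases hold stalled mRNA together or remodel it, and none of their 5 transcripts passed. DDX3X, a helicase that unwinds structured 5′ UTRs, had 203, 59.4 and 302 CPM in the control and 65.7, 28.4 and 253 CPM in the mutant. It was lower in all pairs, most in pair 1, with −0.98 ± 0.32 in the fit (adjusted p = 0.141). CAPRIN1, the partner of G3BP, had 115, 39.1 and 225 CPM against 56.4, 35.6 and 199 CPM and −0.45 ± 0.29 (adjusted p = 0.726).

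G3BP1, the core protein of stress granules, had 75.3, 26.7 and 177 CPM against 45.1, 21.2 and 178 CPM. Its replicate 3 libraries were level while the other mutant libraries were lower, and the fit gave −0.35 ± 0.27 (adjusted p = 0.833). G3BP2 gave −0.21 ± 0.26 and DDX6, the helicase of processing bodies, −0.39 ± 0.27. Of 47 other granule and localization genes, EDC4, the scaffold of the decapping complex, fell by 1.29 ± 0.29 (adjusted p = 0.0149) and the others did not pass. The RNA ligase RTCB was next with −0.97 ± 0.26 (adjusted p = 0.0511). The calls of EDC4 and SMG5 were lost when any pair was left out, with factors from genes far above background and with background subtracted. The median of the 47 was −0.10, beside −0.08 over all tested genes.

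The zipcode, Staufen and Pur proteins take part in directed transport, and none of their transcripts passed. IGF2BP1, which binds the zipcode of localized mRNAs, had 234, 42.3 and 265 CPM in the control and 107, 46.6 and 233 CPM in the mutant; pair 1 was lower and pairs 2 and 3 were close to level. Its fit gave −0.39 ± 0.32 (adjusted p = 0.844). IGF2BP2 had 80.4, 48.2 and 233 CPM against 69.5, 68.1 and 343 CPM, was lower in pair 1 and higher in pairs 2 and 3, and gave 0.28 ± 0.30 (adjusted p = 0.929). IGF2BP3 gave 0.064 ± 0.29. In replicates 1 and 2 IGF2BP2 stood at 0.835 to 2.13 times background. The count of IGF2BP1 relative to IGF2BP2 was 2.91, 0.876 and 1.14 in the control and 1.54, 0.685 and 0.680 in the mutant, lower in each pair, with overlap of the groups (exact permutation p = 0.5; adjusted p = 0.758 over 13 ratios).

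STAU1, which binds double-stranded stems, had 59.2, 30.0 and 129 CPM against 34.6, 46.4 and 128 CPM, with pair differences of both signs (−0.77, 0.63 and −0.0089). STAU2, its brain-enriched relative, had 85.4, 108 and 174 CPM against 85.7, 103 and 251 CPM, level in pairs 1 and 2 and higher in pair 3. Their values were −0.056 ± 0.27 and 0.16 ± 0.29 (adjusted p = 0.99 and 0.974). In replicates 1 and 2 STAU2 stood at 1.03 to 1.25 times background, so those libraries said little about it.

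SYNCRIP, an hnRNP of dendritic granules, had 72.0, 31.4 and 177 CPM in the control and 51.0, 23.6 and 209 CPM in the mutant and gave −0.22 ± 0.28 (adjusted p = 0.951). Only its replicate 3 was higher in the mutant. PURA, which binds purine-rich single strands in kinesin-linked granules, had 25.8, 8.85 and 48.2 CPM against 12.1, 7.85 and 53.8 CPM and −0.36 ± 0.26 (adjusted p = 0.799). PURB had 14.7, 4.36 and 39.1 CPM against 16.6, 1.39 and 34.6 CPM, and its difference of −1.62 in pair 2 rested on 65 counts against 6.

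Readers of 3′ UTR motifs formed the rest of the group. ELAVL1, the stabilizer HuR, had 55.9, 21.4 and 126 CPM in the control and 30.8, 25.9 and 101 CPM in the mutant, lower in pairs 1 and 3 and higher in pair 2. KHSRP, which directs AU-rich mRNAs to decay, had 182, 17.1 and 218 CPM against 77.5, 14.3 and 129 CPM and was lower in all pairs. The fit gave −0.32 ± 0.26 for ELAVL1 and −0.78 ± 0.29 for KHSRP (adjusted p = 0.857 and 0.233).

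PUM2, the Pumilio repressor, had 60.8, 44.0 and 229 CPM against 54.2, 32.1 and 295 CPM, and QKI, the Quaking protein, 81.3, 73.7 and 187 CPM against 80.5, 79.4 and 296 CPM. In both genes the mutant library of replicate 3 was the highest of all. Their values were −0.076 ± 0.29 and 0.26 ± 0.29 (adjusted p = 0.987 and 0.94). KHDRBS1, the signalling adaptor SAM68, had 153, 44.7 and 241 CPM against 78.8, 39.0 and 258 CPM and −0.35 ± 0.30 (adjusted p = 0.87).

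The CPEB proteins control poly(A) tail length. CPEB4 had 47.7, 34.6 and 116 CPM in the control and 24.6, 26.8 and 168 CPM in the mutant, and CPEB2 18.9, 18.9 and 33.9 CPM against 22.6, 14.3 and 52.7 CPM. CPEB4 was lower in pairs 1 and 2 and higher in pair 3, and CPEB2 was lower in pair 2 alone, where it lay under background in both libraries. The fit gave −0.25 ± 0.28 and 0.20 ± 0.24 (adjusted p = 0.939 and 0.948).

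TARDBP encodes TDP-43, a prion-like protein of the nucleus and of axonal granules. It had 71.7, 19.9 and 142 CPM in the control and 44.9, 18.5 and 113 CPM in the mutant, lower in each pair, with −0.38 ± 0.26 (adjusted p = 0.757). EWSR1 and TAF15, of the FET family, gave −0.39 ± 0.28 and −0.11 ± 0.31. TAF15 overlaps 11 annotated genes.

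Levels were compared per kb of exon after background was subtracted. YBX1 was highest by its mean, at 36.1, 9.83 and 212 CPM per kb of exon in the control and 19.1, 7.83 and 104 in the mutant, followed by PABPC1 at 50.8, 11.1 and 91.6 and 25.6, 10.6 and 55.4 and KHDRBS1 at 39.9, 8.28 and 66.5 and 18.9, 6.84 and 71.3. The lowest levels belonged to PURB at 1.41, 0.161 and 4.26 and 1.6, −0.155 and 3.76, PURA at 1.82, 0.259 and 3.87 and 0.65, 0.194 and 4.35, and CPEB2 at 0.672, −0.365 and 4.2 and 0.955, −0.898 and 6.9; a value under 0 is a count below background. Neither end of the order was stable over libraries: PABPC1 stood above YBX1 in replicates 1 and 2 of each group and below it in replicate 3, and PURA stood above PURB in 4 of 6 libraries. The order was alike across libraries, with Spearman rho of 0.77 to 0.93 between control replicate 3 and each other library over the 35 genes, which share exon lengths and, within a library, depth and background.

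The pair differences were graded by gene length. In the 12 genes with the shortest spans (6.90 to 28.5 kb; HNRNPA1, KHSRP, YBX1 and FXR2 among them) the median differences were −0.99, −0.27 and −0.43 in pairs 1, 2 and 3. In the 12 with the longest spans (58.2 to 327 kb; IGF2BP2, QKI, PUM2 and STAU2 among them) they were −0.37, −0.051 and 0.45. In pair 3, 10 of the 12 short genes and 2 of the 12 long genes were lower in the mutant.

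Over the 35 genes Spearman rho between span and pair difference was 0.50, 0.52 and 0.69 in pairs 1, 2 and 3. Over 18456 tested protein-coding genes it was 0.20, −0.031 and 0.51. Over 3043 protein-coding genes far above background it was −0.17, −0.17 and 0.50, so the gradient of pair 3 was present across the table while those of pairs 1 and 2 were not of one sign. Genes of one library share depth, scaling and background, and no test was made. Long genes also stood nearest to background, which was taken as counts per base times gene span and so rises with length by definition. Median counts of the 12 longest were 2.60, 1.29 and 25.7 times background for the control and 1.89, 1.20 and 38.7 times for the mutant. The 12 shortest had 27.6, 4.21 and 247 times for the control and 13.3, 3.71 and 193 times for the mutant. The part of background in the gradient was not tested.

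**Figure D4:**
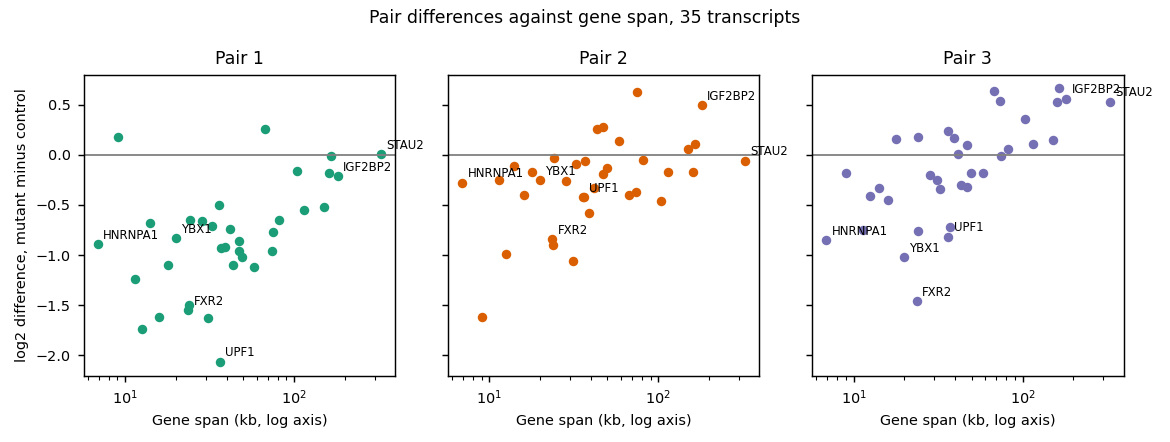
Log2 difference in normalised counts, mutant minus control, of the 35 transcripts against gene span (kb, log axis), with 1 panel for each pair of libraries and 6 genes named. Points climb from left to right, most clearly in pair 3, where FXR2 lies at −1.46 and IGF2BP2 at 0.56.

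The signs of many differences depended on the scaling. With factors taken from genes far above background, the median of all tested genes moved from −0.08 to 0.42 in the fit with pairs, and that of the 35 from −0.37 to 0.12. Then 10 of 35 lay below 0, against 30 with TMM factors. Relative to the median of all tested genes 28 of 35 lay lower under either scaling. So did 3724 of the 4379 genes far above background with TMM factors and 3615 with the other factors. Other factors shift all genes by similar amounts, so agreement between the scalings carries little weight. FXR2 was the lowest of the 35 in both.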

How the data were processed

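The 6 libraries were 3 of the wild-type control and 3 of the AAA mutant, grouped by title. The deposited values are raw counts per Ensembl gene ID, not normalized; the submitters' processing notes name featureCounts, FastQC and STAR 2.7.6a. Build, annotation, strand and overlap settings of the counting: the sources used here give none. Symbols matched 60401 of 60671 IDs, and spans, exons and transcripts came from GENCODE 29 (GRCh38), which held 58453. The labels do not say whether replicates were separate cultures, and p-values therefore cover only the spread among these samples, possibly technical.

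Genes were filtered with filterByExpr (33375 left; all 35 members passed), scaled with TMM and tested with edgeR 4.0.16 (R 4.3.3) by the quasi-likelihood F test, Benjamini-Hochberg adjustment over all tested genes and a threshold of 0.05, without a replicate block. Every adjusted p of a single gene in the text is from edgeR, and unless stated from the fit with the replicate block. Libraries of the same number were checked for pairing: their deviations from the group means had r = 0.41, 0.76 and 0.90 for numbers 1, 2 and 3, and the best match of every library was its own number, so they were taken as pairs. The pairing comes from this check, not from the labels. The check used the same counts that the fit then tested, and background also differed by replicate number. It therefore cannot show that libraries were prepared in pairs, and p-values with the block depend on this choice. A standard error is the log2 fold change divided by the root of F. Pair differences use log2 CPM with a prior count of 1, so they understate the change of low counts. Alternatives were other factors, DESeq2 1.42.0, no filter, background subtraction and left-out libraries or pairs.

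The members and lists were chosen with earlier results of these data known. Values in every library were given for members called with the block, the 4 of smallest p per direction, the 3 highest and 3 lowest per kb of exon, and 1 gene listed for each family or role; other lists gave called genes or the 2 of smallest p. FXR1, the ratios between relatives and the grouping by span were chosen after values were seen.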

Additional observations from a re-analysis of the deposited data

How the results depend on the processing

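The count of called genes over the whole table, 0 without the replicate block, was 469 with the block (467 lower and 2 higher), 312 with the block and upper quartile factors, 4 with the block and factors from genes far above background, and 0 with the block and background subtracted, where 402 of 21887 tested genes had an unadjusted edgeR p under 0.05. With the block and one pair left out it ranged from 0 to 259, at 37 without pair 1, 259 without pair 2 and 0 without pair 3; without the block it was 0 whichever library was left out. With the block, or with the block and upper quartile factors, 1 of the 35 transcripts (FXR2), 1 of the other granule genes and 1 of the other decay genes were called; no other setting called any. Over the settings with the block, the adjusted p of FXR2 ran from 0.00459 to 0.993, the latter with background subtracted, where its value was −1.50.

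The median log2 fold change of the 35 transcripts, −0.32 without the block, turned to 0.13 with factors from genes far above background and to 0.12 when these were combined with the block. With 1 library left out and no block it ranged from −1.33 to 0.68, at 0.68 without control replicate 3, 0.34 without mutant replicate 2, −0.78 without control replicate 2 and −1.33 without mutant replicate 3. FXR2, the 1 transcript of the 35 called in any fit, was lower in the mutant in each fit that called it. The sign differed from that of the fit without the block for 22 of 35 transcripts without control replicate 3. It differed for 17 without mutant replicate 2 and for 16 with factors from genes far above background. With the block it differed for 3, and with DESeq2 for 0. In replicate 2 of either group 17 of 35 transcripts lay under 2 times background, where background made up 84.4% of nuclear gene counts in the control and 81.8% in the mutant, and pair 2 says little about these transcripts.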
